A study of Botryllus schlosseri with 42 samples.

Results

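The contigs described here are those of the Botryllus schlosseri EST assembly with a higher mean in fertile than in infertile colonies at the close of the budding cycle, stages C2 and D, and without a large difference at 2 earlier stages, A1 and B1. They were chosen with a ratio r, the fertile mean plus 5 over the infertile mean plus 5, both in normalized counts. A contig was taken when r was below 4 at A1 and at B1, when r was at least 3 at C2 and at D, and when its fertile mean was at least 30 at C2 and at D. The genes the study listed by name as upregulated in fertile colonies were left out, which removed 0 contigs. The rule found 75 of 50106 contigs. Because the group means of A1, B1, C2 and D chose them, the values of these stages are given as a description without a test, and only A2, B2 and C1 were tested.

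Whole laboratory-raised colonies were sequenced at 7 stages of the cycle, from A1 through A2, B1, B2, C1 and C2 to D. Each stage has 3 libraries of fertile and 3 of infertile colonies, 42 in all. The fertile libraries, labelled hermaphrodite, are the genotypes Fert801 and Fert841 and a mix of genotypes (MixFert), and the infertile ones are Infert802, Infert001 and a mix (MixInfert). No treatment is given for either group, and the same genotypes and mixes recur at every stage. According to the study's methods, the genotype of Fert841 is also a part of the infertile mix. The methods also list SB802a in the fertile mix and SB802d among the infertile samples, without stating how these are related. Replicates are thus genotypes or mixes and not animals of 1 strain, so a difference between genotypes cannot be told apart from a difference in fertility with these samples. The ages of the colonies are not given in the sources used here.

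Botryllus schlosseri is a colonial ascidian, a relative of the vertebrates, that replaces its adult bodies (zooids) by budding in a repeated cycle called blastogenesis. In the last stages of the cycle the adult zooids regress, are cleared by phagocytes, and are replaced by the primary buds, an event known as takeover. Fertile colonies carry testes and eggs with their follicle cells in zooids and buds, and infertile colonies bud in the same way without mature gonads. In whole colonies, fewer cells of a type and less RNA per cell cannot be told apart.

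The deposited tables give levels as a mean for each group. Because each mean is a sum of whole read pairs of 3 libraries, the value of each library could be recovered for at least 99.6% of the contigs in every group, including all 75. Recovered libraries carry no name, so within each group and stage the numbers 1 to 3 were given by falling size factor, and the same number at 2 stages does not mean the same genotype. They held between 3306697 and 13099393 read pairs on contigs with library values, which left out the most abundant contigs. Markers of gonads marked the groups unevenly. The 5 markers of testis and sperm (tsk-1, tsk-2, tsk-6, odf3l2 and fsip2) summed to between 392 and 8302 normalized counts in the fertile means over the stages and to between 61.4 and 1024 in the infertile means. The 4 markers of egg and follicle (vtg, ldlr, zp-1 and tll1) summed to between 2462 and 47189 in the fertile and to between 47.9 and 323 in the infertile means. No marker was at 0 in a group mean at any stage. All 9 markers were taken by the study from these samples. Its in situ hybridization also found tsk-2 in oocytes, vtg in cells around the testes, zp-1 along the endostyle and ldlr in secondary buds. The sums are therefore not a measure of a single tissue each. A few libraries stood apart in the testis and sperm markers. Infertile library 1 summed to 813 at B2, to 2000 at C1 and to 2936 at C2, against at most 125 in the other infertile libraries of these stages, and fertile library 3 of A2 summed to 510 against 8137 and 5093 in the other fertile libraries.

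The 75 contigs did not, as a set, begin to differ at C2. Their median r was 2.07 at A1, 2.31 at A2, 2.54 at B1, 2.29 at B2 and 2.10 at C1, then 4.41 at C2 and 4.14 at D. Only 19 contigs had r below 2 at both A1 and B1, and the other 56 had r between 2 and 4 at one of them or at both. For 20 contigs r was at least 2 at all 7 stages. The smaller of the late ratios was above the larger of the early ones for 67 contigs, at least 2 times it for 15, and not above it for 8. Most members lay close to the threshold, since the smaller late ratio was between 3 and 5 for 65 contigs and at least 5 for 10. Its median was 3.49 and its highest value 10.1. Among all contigs with a fertile mean of at least 30 at the stage, the median r was between 0.970 and 1.01 over the 7 stages.

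**Figure D1:**
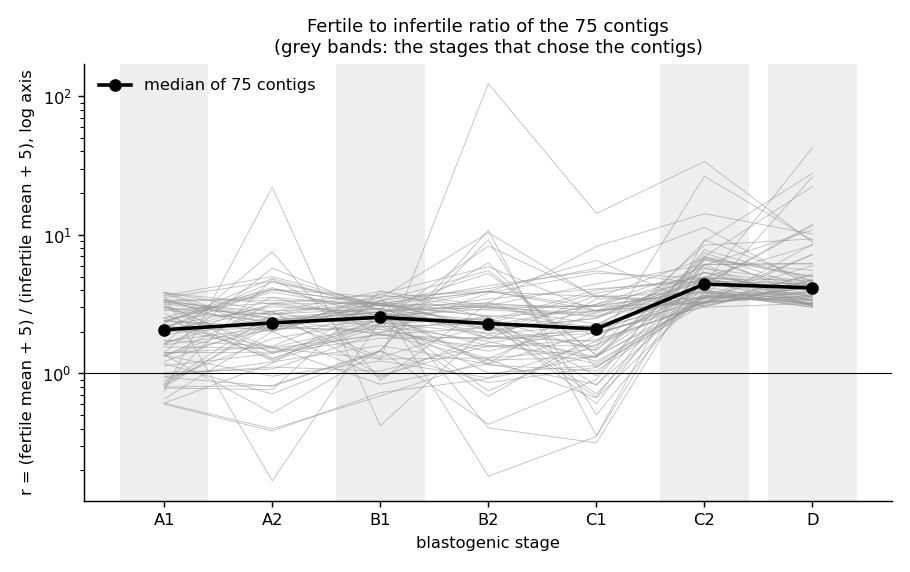
The ratio r (log axis) is drawn at each of the 7 blastogenic stages for the 75 contigs, 1 grey line per contig, with the median in black. Grey bands mark the stages whose means chose the contigs. The median is between 2.07 and 2.54 from A1 to C1 and 4.41 and 4.14 at C2 and D, and the step is fixed in part by the rule.

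The contigs nearest to the threshold show what it separates. Just inside it were Bot_c2516, with r of 3.88 at C2 and 3.0005 at D, and Bot_rep_c49336, with 3.003 and 3.20. Just outside were Bot_c3074, with 2.98 at C2 and 5.25 at D, and Bot_c8543, with 2.98 and 4.98.

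A homolog was named for 18 of the 75 contigs in the study's sheets used here, for 16 of them in human and for 2 only in the ascidian Ciona intestinalis. A further contig matched an uncharacterized Ciona protein, 28 were listed without a homolog, and 28 were not among the 4967 contigs of these sheets. The sheets used were those of A1, A2, B1, B2 and C1, in shortened form. Sheets of C2 and D were not read, so a contig without a name here may have one there or in the full sheets. The roles given below are those of the vertebrate proteins. They are background, and a name stands for the best protein match of a contig. Glutamyl aminopeptidase and low-density lipoprotein receptor-related protein 2 were each matched by 2 contigs.

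The first group binds ligands or other cells at the surface. Fibrinogen C domain-containing protein 1 (FIBCD1, Bot_rep_c35964), in human a membrane receptor for acetylated sugars such as chitin, had the highest smaller late ratio of the contigs with a homolog (r of 26.5 at C2 and 9.13 at D). Its fertile libraries held 193, 103 and 135 normalized counts at C2 and its infertile libraries 0, 1.85 and 0, with all infertile reads from 1 read pair. At D the fertile libraries held 93.0, 0 and 47.7, and the infertile ones 0, 2.05 and 0. The groups were apart at C2, whereas at D 1 fertile library had no reads either. The same contig was high in single infertile libraries earlier in the cycle, with 400, 0 and 0 at A1, 1262, 0 and 0 at B1, and 0, 527 and 0 at C1. Its ratio below 1 at A1 and B1 (r of 0.74 and 0.42) therefore came from 1 infertile library at each stage, and the other infertile libraries of these stages had no reads.

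Tetraspanin-8 (CAP3_round1_contig_7497), a membrane protein that organizes complexes of surface proteins, had r of 33.8 at C2 and 8.82 at D. This contig is a different one from the tetraspanin-8 contig in the study's own list. Its fertile libraries held 2000, 2307 and 1315 normalized counts at C2 against 6.92, 88.8 and 55.9 in the infertile ones. At D the values were 2235, 11.4 and 784 against 284, 39.0 and 6.87. The groups were apart at C2, but fertile library 2 of D was as low as the infertile libraries. At A1 a single fertile library carried the contig, with 3826 normalized counts against 11.3 and 0, and a single infertile library did so too, with 1107 against 7.30 and 6.17. At B2, a stage the rule did not use, r reached 123, with 6937, 5.88 and 1445 in the fertile libraries and 3.33, 26.5 and 23.3 in the infertile ones. The groups overlapped there, with a log2 difference of 4.85 between library values (standard error 2.39, limma adjusted p = 1.00).

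The C-type mannose receptor 2 homolog (Bot_c4616), in vertebrates a receptor that takes up collagen, was even across the fertile libraries at D. They held 91.1, 127 and 145 normalized counts, and the infertile libraries 21.5, 8.22 and 18.3. At C2 the fertile libraries spread more widely, with 183, 10.7 and 122 against 19.0, 49.98 and 11.2, and the groups overlapped. The contig was not particular to the late stages. At A2 the fertile libraries held 130, 86.8 and 148 and the infertile ones 21.6, 22.0 and 7.46, a log2 difference of 2.87 (standard error 0.55), which had the lowest adjusted p of any member at a tested stage but did not pass a 10% FDR (limma adjusted p = 0.419, between 0.297 and 0.992 over the alternatives).

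The notch 1 homolog (Bot_c29662), a receptor for ligands on neighbouring cells, had small counts in both groups and smaller ones in the infertile group. Its fertile libraries held 34.5, 85.5 and 34.2 normalized counts at C2 and 71.1, 18.9 and 55.7 at D. The infertile libraries held 15.6, 3.70 and 0 at C2 and 7.15, 12.3 and 2.29 at D. The groups did not overlap at C2, D, B1 or A2. At A2 the fertile libraries held 84.4, 16.9 and 20.8 against 8.30, 0 and 4.97, a log2 difference of 3.08 (standard error 1.12, limma adjusted p = 0.764). Its fertile mean was 34.3 at A1, 24.3 at C1, 51.4 at C2 and 48.6 at D.

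Low-density lipoprotein receptor-related protein 2, also called megalin, is a receptor that internalizes lipoproteins and other ligands, and 2 contigs matched it. Bot_c19589 held 138, 60.5 and 6.41 normalized counts in the fertile libraries at C2 and 219, 28.4 and 109 at D, against 1.73, 37.0 and 13.97 and against 19.7, 14.4 and 2.29 in the infertile ones. Bot_c21312 held 116, 85.5 and 12.8 at C2 and 122, 34.1 and 69.6 at D, against 8.65, 42.6 and 8.38 and against 28.6, 8.22 and 2.29. Both overlapped at C2 and neither did at D. Both may be parts of 1 transcript, which the files do not show.

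Of the signalling kinases, the homolog of the calcium/calmodulin-dependent protein kinase type II subunit alpha (Bot_c16878), which responds to calcium, held 93.0, 22.7 and 45.8 normalized counts in the fertile libraries at D and 5.36, 10.3 and 6.87 in the infertile ones. At C2 it held 25.9, 137 and 21.4 against 22.5, 3.70 and 0, and the groups overlapped by a narrow margin. Its ratio was already 2.40 at A1 and 2.89 at B1, and at C1 the 3 fertile libraries, with 95.9, 19.4 and 17.3, lay above 13.5, 4.18 and 4.30 (log2 difference 2.17, standard error 0.89, limma adjusted p = 0.918).

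The Src homolog (Bot_c20836), a tyrosine kinase of the inner cell membrane, had even fertile levels at both late stages. Its fertile libraries held 44.8, 48.1 and 53.4 normalized counts at C2 and 140, 133 and 141 at D. The infertile libraries held 17.3, 3.70 and 11.2 at C2 and 23.2, 12.3 and 52.7 at D. The groups were apart at both stages. The fertile mean was 44.6 at A1, 57.6 at B1, 11.6 at C1 and 138 at D. The infertile mean was 57.2 at A1, 17.6 at B1, 10.98 at C1 and 29.4 at D.

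A pair of contigs matched proteins of ion transport. Pendrin (Bot_c2560), an exchanger of chloride, iodide and bicarbonate, held 72.9, 9.47 and 35.8 normalized counts in the fertile libraries at D against 1.79, 0 and 4.58 in the infertile ones, with 3 read pairs in the infertile libraries together. At C2 its fertile mean of 110 came from 1 library, with 8.62, 312 and 10.7, while the infertile libraries held 12.1, 29.6 and 0. At A2 the mean was the higher one in infertile colonies, with 6.64, 452 and 2.49 against 42.2, 6.35 and 16.2 in fertile ones, and r was 0.17. The order of the means at A2 and the size of the C2 mean thus came from single libraries, whereas the groups were apart at A1 and at D. The homolog of calcium-activated chloride channel regulator 1 (CAP3_round1_contig_9076), a secreted protein that modulates chloride channels, held 241, 598 and 475 normalized counts against 161, 103 and 84.8 at D, and the groups were apart. At C2 it held 2289, 167 and 613 against 190, 716 and 33.5, and the groups overlapped. At A2 it held 728, 411 and 182 against 61.4, 178 and 24.9, and the groups did not overlap (log2 difference 2.53, standard error 0.81, limma adjusted p = 0.764).

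The enzymes were led by a pair of contigs matching glutamyl aminopeptidase, a membrane peptidase that removes acidic residues from the start of peptide hormones such as angiotensin. In Bot_rep_c54104 the fertile libraries held 4127, 1463 and 387 normalized counts at C2 and 2045, 666 and 1152 at D. The infertile libraries held 185, 1127 and 226 at C2 and 510, 409 and 197 at D. The groups overlapped at C2 and were apart at D. Both group means were lower at D than at B1 and B2. A single infertile library held 9048 at B1, 7680 at B2 and 7781 at C1, where the fertile libraries ranged from 607 to 7634, and no infertile library exceeded 1127 at C2 or 510 at D. The second contig, Bot_rep_c51053, held 569, 182 and 298 against 30.4, 39.0 and 13.7 at D and followed the same course with smaller counts, with infertile means of 604 at B1 and 27.7 at D.

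The other enzymes differed in how early the difference was seen. The maltase-glucoamylase-like contig (CAP3_round1_contig_3866), whose vertebrate relative digests starch, had r of 2.12 at A1 and 3.12 at B1 and reached 5.13 at D, where it held 235, 165 and 183 against 62.6, 20.5 and 18.3. At A2 its fertile libraries held 273, 106 and 145 and its infertile ones 48.1, 55.9 and 14.9, without overlap (log2 difference 2.20, standard error 0.63, limma adjusted p = 0.764). Glutathione S-transferase omega-1 (Bot_rep_c52138), which uses glutathione to reduce oxidized thiols, held 188, 43.5 and 101 at D against 12.5, 0 and 2.29, and 91.4, 99.7 and 34.2 at C2 against 6.92, 33.3 and 0. Its groups were apart at both late stages, whereas 1 infertile library was high at each of the earlier stages, for instance 140 of 1.66, 140 and 2.59 at B2. The seprase-like contig (Bot_rep_c55017), a membrane-bound serine peptidase named in Ciona, held 140, 134 and 121 at D against 44.7, 0 and 45.8, and overlapped at C2, with 286, 39.2 and 55.6 against 15.6, 83.3 and 8.38.

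The last group is intracellular. Calmodulin-regulated spectrin-associated protein 2 (CAMSAP2, Bot_c17858), which binds the minus ends of microtubules, held 44.8, 42.7 and 38.5 normalized counts in the fertile libraries at C2 and 47.4, 20.8 and 25.9 at D. The infertile libraries held 15.6, 5.55 and 0 at C2 and 3.58, 4.11 and 6.87 at D. Its groups were also apart at B1 and at C1, with 21.2, 29.0 and 21.7 against 14.8, 1.39 and 0 at C1 (log2 difference 2.88, standard error 1.16, limma adjusted p = 0.918). The homolog of cell division control protein 6 (Bot_c6297), named in Ciona and known for preparing DNA for replication, held 166, 98.4 and 105 against 39.3, 18.5 and 45.8 at D. At C2 1 infertile library was as high as a fertile one, with 72.4, 260 and 96.2 against 77.8, 9.25 and 19.6. Its r was 2.35 at A1 and 3.20 at B1, close to the 3.24 of stage D.

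The Golgin subfamily A member 6-like protein 1 homolog (Bot_rep_c45156), of a family of coiled-coil Golgi proteins, had the highest counts of the 75 contigs, which are not corrected for contig length, and its order of means reversed over the cycle. Its mean was lower in fertile than in infertile colonies at A1, A2, B1 and C1, with r between 0.40 and 0.69. At C2 its fertile libraries held 2298, 2382 and 4238 normalized counts and its infertile ones 1534, 731 and 89.4. At D it held 5135, 7396 and 6175 against 4268, 939 and 1006, and the groups were apart at both. At A1 the infertile libraries held 8514, 1283 and 20780 against 6966, 2212 and 9468, so the order of the means came from 1 infertile library and the groups overlapped.

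**Figure D2:**
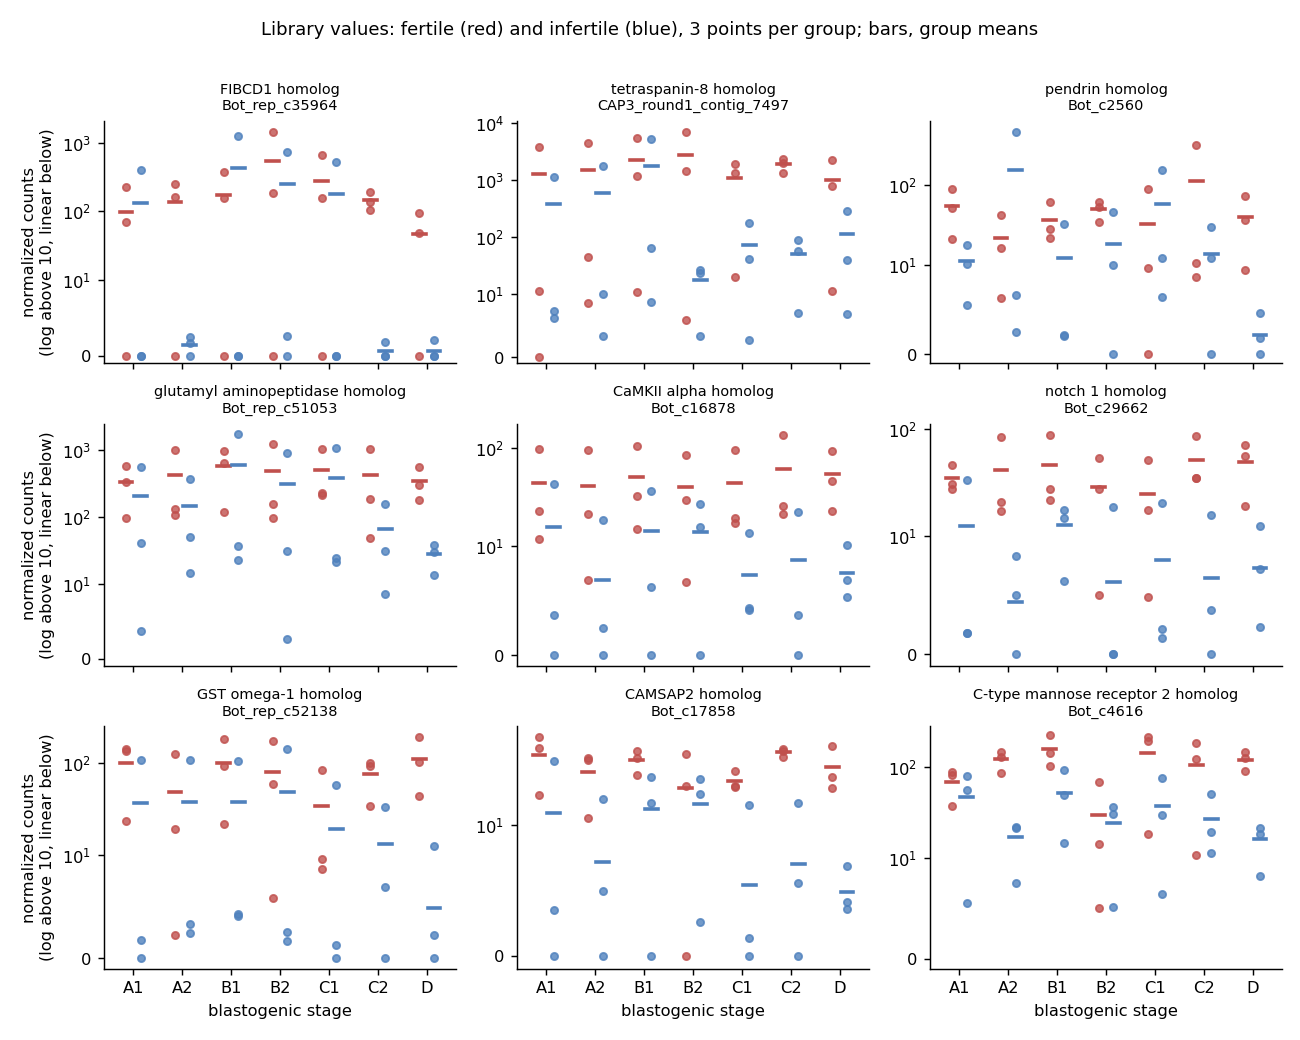
Library values in normalized counts (linear up to 10, logarithmic above) are drawn by stage for the 9 contigs with a named homolog and the largest late ratios, with fertile libraries in red, infertile libraries in blue and bars at the means of the 3 libraries. Single blue points far above the others are seen at A1 to C1, and the highest blue points of the FIBCD1, glutamyl aminopeptidase and GST omega-1 homologs are lower at C2 and D.

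The members without a named homolog included Bot_c6373, with the largest smaller late ratio of all. It held 0, 397 and 0 normalized counts in the fertile libraries at C2 against 0, 0 and 13.97. At D, the stage with the smaller ratio, it held 215, 0 and 67.6 against 0, 14.4 and 0. Both groups had libraries without reads, so the mean describes single libraries. Bot_rep_c42542 held 239, 0 and 81.6 at D and had no reads in any infertile library, where its fertile mean was at least 17.4-fold the limit that 3 read pairs in each infertile library allow. At C2 it held 93.1, 112 and 0 against 0, 16.7 and 0.

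The 3 remaining contigs of this group were present in every fertile library at both late stages. CAP3_round1_contig_5773 held 4010, 1524 and 4108 normalized counts at C2 against 845, 217 and 0, and 933, 1598 and 1297 at D against 1.79, 0 and 121. Bot_c5919 held 557, 438 and 1357 against 266, 0 and 0 at C2, and 744, 1886 and 1391 against 0, 0 and 417 at D. Bot_rep_c52459 held 722, 299 and 175 against 116, 61.1 and 5.59 at C2, and 343, 367 and 410 against 5.36, 10.3 and 154 at D. The groups of all 3 were apart at C2 and D. At the earlier stages each of them was high in at least 1 infertile library: at A1 the infertile libraries of Bot_c5919 held 0, 0 and 1632, and those of Bot_rep_c52459 held 790, 3.65 and 179.

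The naming rule does not cover a pair of further contigs, which were picked after their values were seen. Bot_rep_c52228 had every fertile library above every infertile one at 6 of the 7 stages, B2 being the exception. Its fertile libraries held 750, 381 and 983 normalized counts at A2 against 257, 146 and 107, and 1382, 577 and 897 at D against 216, 109 and 305. The log2 difference was 2.04 at A2 (standard error 0.50, limma adjusted p = 0.710) and 1.69 at C1 (standard error 0.61, limma adjusted p = 0.918). Bot_c29076 was present in every fertile library of the cycle and, at each stage, in a single infertile one. Its groups were apart at 4 stages, as were those of the notch 1 and CAMSAP2 homologs and of Bot_rep_c52148. At A2 it held 72.6, 86.8 and 71.6 against 38.2, 0 and 0, and at D 80.2, 60.6 and 77.6 against 0, 0 and 4.58. Its log2 difference was 4.52 at A2 (standard error 1.44, limma adjusted p = 0.764), 3.67 at B2 (standard error 1.49, limma adjusted p = 1.00) and 4.20 at C1 (standard error 1.30, limma adjusted p = 0.918).

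The values above show a spread between libraries of 1 group that was wider in these contigs than in most. The ratio of the highest to the lowest library, with 5 added to each, was at least 5 in fertile libraries for 43 of the 75 contigs at C2 and for 32 at D. Among all contigs with a fertile mean of at least 30 the shares were 10.8% and 5.94%. In infertile libraries it was at least 5 for 43 contigs at C2 and 31 at D, against 14.8% and 13.7% of all such contigs. The spread was as wide at the stages the rule did not use, with 49, 50 and 45 of the 75 contigs at A2, B2 and C1 in fertile libraries. Among all such contigs the shares were 14.8%, 22.7% and 13.4%. At A2, for example, 1 library held a median of 69.1% of the fertile sum and 84.1% of the infertile sum of a member, against 44.7% and 46.6% over all such contigs. At least 1 infertile library was at or below 3 read pairs for 43 contigs at C2 and 40 at D, and at least 1 fertile library for 15 and 14.

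Fertile library 3 of stage D was mostly the middle one. It lay between the others for 66 of the 75 contigs, against 62.4% of all contigs with a fertile mean of at least 30, and the medians over the members were 184, 54.9 and 127 normalized counts in libraries 1, 2 and 3. Library 1 was at least 5 times library 2 for 22 contigs, library 2 at least 5 times library 1 for 10, and they were within 2 times of each other for 23. The infertile medians at D were 17.9, 10.3 and 22.9. At C2 the fertile medians were 165, 148 and 59.8 and the infertile ones 25.9, 33.3 and 11.2.

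At C2 all 3 fertile libraries lay above all 3 infertile ones for 27 of the 75 contigs (7.22% of all contigs tested), and at D for 42 (10.9% of all). These are stages of the rule, so the counts describe the choice. Without infertile library 1 of C2, which stood apart in the testis and sperm markers, the count at C2 was 35, in a comparison chosen after the data were seen, while the share over all contigs was 15.7%. The part of gonad cells in these differences was not tested. The summed fertile means of the markers were highest at B1 for egg and follicle and at B2 for testis and sperm. The 4 egg and follicle markers had higher fertile means at both late stages. The 5 testis and sperm markers all had higher fertile means at D, and at C2 only tsk-6 did. At C2 the infertile libraries summed to 2936, 81.4 and 55.9 over these 5 markers and the fertile ones to 443, 584 and 224, so the order of the C2 means came from infertile library 1. At A1 the groups were apart for 3 of 73 contigs tested (7.75% of all) and at B1 for 9 of 75 (8.04%). At the stages not used by the rule the counts were 9 of 74 at A2 (6.93% of all), 2 of 73 at B2 (4.88%) and 8 of 74 at C1 (4.39%). No member had all infertile libraries above the fertile ones at any stage, against between 3.47% and 10.8% of all contigs over the stages. At C2 and D the rule leaves little room for that order.

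**Figure D3:**
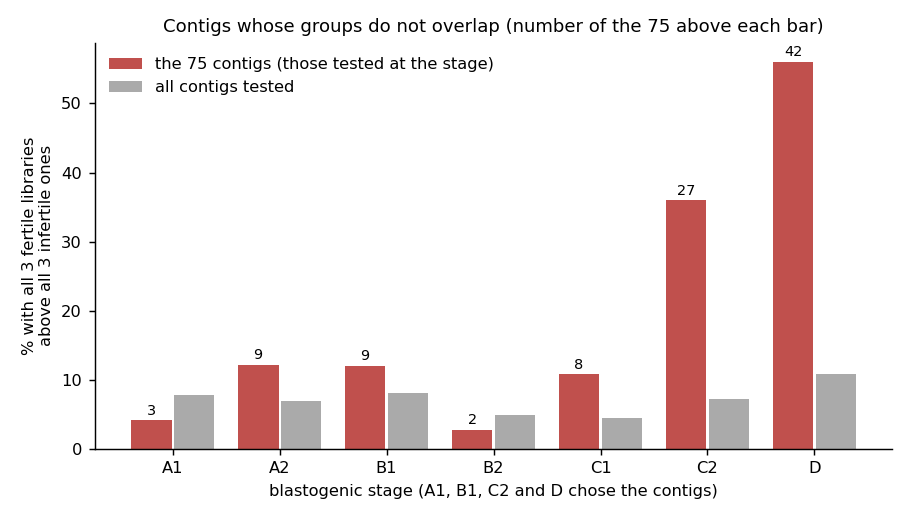
Bars give the percentage of contigs in which all 3 fertile libraries exceed all 3 infertile ones at each stage, for the 75 contigs (red, with their number) and for all contigs tested (grey). The red bars reach 36.0% at C2 and 56.0% at D, stages that chose the contigs, and are between 2.74% and 12.2% at the others.

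Many late ratios rested on 1 library. When each library was left out in turn, the number of contigs with r of at least 3 fell from 75 to between 50 and 70 at C2 and to between 45 and 75 at D. The lowest counts were those without fertile library 2 at C2 and without fertile library 1 at D, and only the latter was more than 1.5 times below 75. Whichever library was left out, 11 contigs stayed at r of at least 3 at both stages. With a homolog these were FIBCD1, tetraspanin-8, notch 1 and glutathione S-transferase omega-1, and without a named one Bot_rep_c52228, Bot_c29076, Bot_c5919, Bot_rep_c42542, Bot_rep_c52459, Bot_rep_c41646 and CAP3_round1_contig_5773. For 55 contigs r stayed at 2 or more.

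At the 3 stages the rule did not use, the members had mostly higher means in fertile libraries, but no member passed the test. With limma, 0 of 74 members were called at A2, 0 of 73 at B2 and 0 of 74 at C1 at a 10% FDR, where 0%, 0.0133% and 0% of all contigs were called higher. An unadjusted p below 0.05 with a higher fertile level was found for 10 members at A2 (3.62% of all contigs), 4 at B2 (2.67%) and 9 at C1 (1.96%), and for no member with a lower one. With voom these counts were 8, 4 and 8, and 0 were called. The median log2 difference of the members was 1.46 at A2, 1.81 at B2 and 1.62 at C1, with 67, 64 and 65 members higher in fertile libraries. Over all contigs tested the medians were 0.01, -0.01 and 0.01. The members were chosen on the same genotypes at other stages, so these differences are not independent of the rule.

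Single libraries set much of these medians. At A2 the median fell to 0.85 without fertile library 1 and to 0.86 without infertile library 3, at B2 to 1.16 without infertile library 3, and at C1 to 0.87 without infertile library 3. Without the libraries that stood apart in the testis and sperm markers it was 1.94 at A2 (fertile library 3), 1.77 at B2 and 1.55 at C1 (infertile library 1 at both). Scaling by library totals moved the median of all contigs to 0.22 at A2 and 0.20 at C1, and that of the members to 1.65 and 1.78. Over the members, the medians of the 3 infertile libraries at C1 were 33.7, 65.5 and 8.61 normalized counts and those of the fertile libraries 130, 43.5 and 60.7, so infertile library 2 lay above the lower pair of fertile libraries.

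Not all members kept the direction. Of 72 contigs tested at all 3 stages, 55 were higher in fertile libraries at each of them and 2 were lower at each. The lowest values were those of Bot_rep_c50497 at B2 (-3.18) and C1 (-2.14) and of Bot_c3421 at A2 (-1.97). Bot_rep_c50497 held 6565 normalized counts in 1 infertile library of B2, with 373 and 0 in the others, against 1.67, 1244 and 0 in the fertile ones. At D it held 0, 1310 and 859 against 0, 0 and 550, so fertile library 1 had no reads there.

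**Figure D4:**
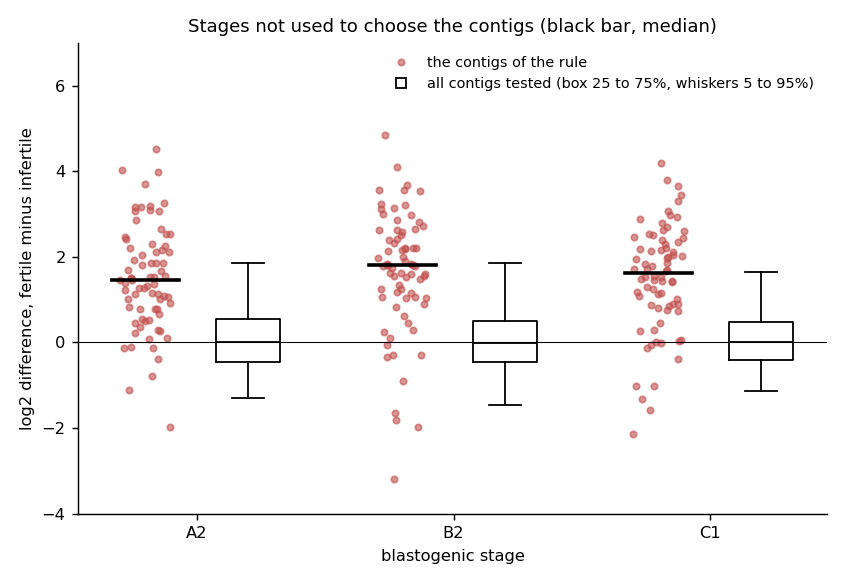
Points give the log2 difference on library values, fertile minus infertile, of each member tested at A2, B2 and C1, with a black bar at their median (1.46, 1.81 and 1.62). Boxes give the middle 50% and whiskers the 5% to 95% range of all contigs tested, whose medians are 0.01, -0.01 and 0.01. No point passed a 10% FDR.

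Over the cycle the infertile level moved more than the fertile one. The early level was taken as the mean of A1 and B1 and the late level as the mean of C2 and D, with 5 added to each. The infertile level was lower late than early for 70 of the 75 contigs, with a median log2 change of -0.71, and the fertile level was higher late for 51, with a median of 0.16. Among 28077 contigs with fertile means of at least 30 at C2 and D the medians were -0.04 in both groups. The infertile level was at least 2 times lower late for 31 contigs and the fertile level at least 2 times higher for 7, with 2 contigs in both counts. For 27 contigs the infertile level was at least 2 times lower while the fertile level stayed within 2 times. The rule limits the early and fixes the late ratio, which sets part of this pattern. Stages were normalized separately. With 1 scaling over all 42 libraries the counts were 66 lower in infertile and 53 higher in fertile libraries, with 30 and 7 beyond 2 times.

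The 7 contigs with a fertile level at least 2 times higher late had no named homolog in the sheets used. Of these, Bot_rep_c52412 had the largest rise of its fertile mean, from 20.0 early to 109 late, while its infertile mean was 16.6 at both. The infertile level was not even, with means of 29.5 at A1, 3.60 at B1, 1.81 at C2 and 31.4 at D. Its late fertile libraries held 0, 217 and 0 at C2 and 324, 3.79 and 109 at D, so the late fertile mean again came from few libraries. Bot_rep_c38998 went from 40.5 to 122 in fertile and from 18.5 to 28.6 in infertile colonies, and Bot_c28166 from 26.0 to 81.1 and from 14.3 to 12.7. In Bot_c28166 every fertile library contributed, with 77.6, 89.0 and 105 at C2 and 85.7, 71.9 and 57.7 at D, against 25.9, 0 and 0 at C2 and 0, 0 and 50.4 at D in the infertile ones.

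**Figure D5:**
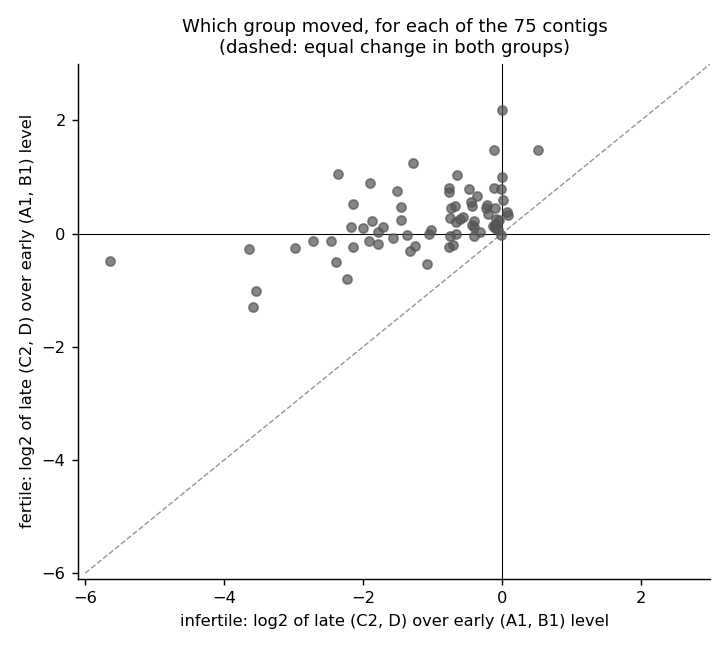
For each of the 75 contigs the log2 ratio of the late (C2 and D) to the early (A1 and B1) level is drawn for fertile colonies (vertical axis) against infertile colonies (horizontal axis), with a dashed line at equal change. Nearly all points lie above the line, as the rule largely fixes, and 70 of the 75 lie left of 0 on the horizontal axis while the vertical values centre on 0.16.

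Some members rose and fell together across libraries of 1 group and stage. Over the 42 libraries, after the mean of each group and stage was taken off the log2 values, 10 of the 2775 pairs had a Pearson correlation of at least 0.9, and the median pair had 0.21. These correlations describe libraries that share genotypes, and the pairs may be parts of 1 transcript or alleles. The closest were Bot_rep_c54648 with Bot_rep_c50497 (0.99), the glutamyl aminopeptidase contigs Bot_rep_c51053 and Bot_rep_c54104 (0.98), and Bot_rep_c51740 with Bot_rep_c55709 (0.95). Other pairs went opposite ways, with a lowest correlation of -0.83 and 302 pairs below -0.3. The 75 contigs are therefore not 75 separate measurements, and they do not follow a single order of libraries.

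Few members fell in the functional lists, which were matched by words in the homolog names and were drawn from sheets that the study chose on these samples. Of the 2313 contigs with a named homolog in these sheets, 18 were members, so low counts in a list say little about the members. Matrix and adhesion held 2 members (FIBCD1 and notch 1) of 166 contigs, egg coat and yolk 2 of 19 (both megalin contigs, through their lipoprotein receptor name), signalling receptors and ligands 3 of 99, lectins and innate immunity 1 of 83, and transporters and channels 1 of 106. The lists of serine proteases, metalloproteases, cilia and sperm, cell cycle and germ line, chromatin and transcription, lipid metabolism, the ubiquitin pathway, and muscle and cytoskeleton held 0 members. The match by words missed members whose roles touch these lists, among them the CDC6, seprase-like and glutamyl aminopeptidase homologs, so a count of 0 is a count of matched names only. Within matrix and adhesion, 0 of the 146, 145 and 146 contigs tested at A2, B2 and C1 passed a 10% FDR with limma, and 24, 20 and 7 had an unadjusted p below 0.05 with a higher level in fertile libraries. Of the egg coat and yolk list, 1 of 14 contigs passed at B2, higher in fertile libraries, and 0 of 14 at A2 and 0 of 16 at C1, and of the signalling receptors and ligands 1 of 81 passed at B2, also higher in fertile libraries. In the cilia and sperm list, which held no member, 46 of 101 contigs at A2 had an unadjusted p below 0.05 with a higher fertile level and 0 passed the FDR. Over all contigs tested, 3.62% at A2, 2.67% at B2 and 1.96% at C1 had such a p and direction. The sheets that gave the lists compare the same libraries at A1 to C1, so an excess in a list is not independent of that choice.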

How the data were processed

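Per the submitters' processing notes and the study's methods, paired-end reads of whole colonies were mapped with Bowtie 0.12.7 to an EST assembly, counted per contig and compared with DESeq 1.10.1. The authors deposited 1 table per stage, and the signal used here is their mean of normalized counts for each group. Their columns of fold change, log2 fold change, p-values and adjusted p-values were not used. Library values were recovered as whole read pairs (each counted as 2 by the authors). Contigs with library values held between 3306697 and 13099393 read pairs per library. The floor was set at 3 read pairs per library, which covers counting error only. At A2, B2 and C1, log2(normalized count + 1) was tested with limma 3.58.1 in R 4.3.3 where the 6 libraries averaged 10 normalized counts or more. P-values were adjusted by Benjamini-Hochberg over all contigs of the stage, at a 10% FDR. Numbers such as the library order carry no genotype. Python 3.11.15, numpy 2.4.6 and pandas 2.3.3 were used for the rest. The test was also run on simulated counts of A2 with a single dispersion setting for all contigs. That run does not show how often differences are found in contigs as widely spread as the members.

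Named in the text are the 18 members with a named homolog, the 5 without one and with the largest smaller late ratio, and the contigs nearest to the threshold. Others are named where they are extremes, and were chosen after their values were seen. The members, lists and tests were chosen with earlier results of these data known. Alternatives covered pseudocounts of 0.5 and 5, minimum means of 0 and 30, scaling, voom, other thresholds of the rule and leaving out each library. Sequences of the contigs were not used here. Reads shared between contigs of 1 gene, or between alleles, make single values uncertain.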

Additional observations from a re-analysis of the deposited data

How the results depend on the processing

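The number of contigs depended on the rule. It was 560 with a late ratio of at least 2, 10 with at least 5, 19 with early ratios below 2 and 42 with fertile means of at least 100, and within 1.5 times of 75 with a constant of 1 or 10 in r and with fertile means of at least 10. No member passed a 10% FDR at A2, B2 or C1 under any of the 13 alternatives run per stage. Leaving out 1 library, the number of members with an unadjusted p below 0.05 and a higher fertile level ranged from 4 to 15 at A2, from 1 to 12 at B2 and from 3 to 17 at C1, and their median log2 difference from 0.85 to 1.94, from 1.16 to 1.97 and from 0.87 to 2.02. Under the other alternatives it ranged from 1.19 to 1.65, from 1.40 to 1.89 and from 1.30 to 1.78. The late ratio was at least 3 for 50 to 70 contigs at C2 and for 45 to 75 at D without 1 library. The number of members higher in fertile libraries ranged from 52 to 69 of 74 at A2, from 58 to 67 of 73 at B2 and from 59 to 70 of 74 at C1 without 1 library, with the lowest at A2 without fertile library 1. Causes were not tested. The labels give no pairs of fertile and infertile libraries within a stage. Libraries were not matched across stages, because the recovered ones carry no replicate number. Ratios of contigs with few read pairs are limited by depth.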
